A study of Mus musculus with 5 samples.

Results

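*Gas1* and 9 other genes of the hedgehog pathway were followed in whole mouse colon 3 hr after injection of NT-3N, an agonist of the interleukin-11 (IL-11) receptor. The 10 genes were *Gas1*, *Boc*, *Cdon*, *Ihh*, *Ptch1*, *Smo*, *Gli1*, *Gli2*, *Gli3* and *Hhip*, out of 32917 features tested on the arrays, of which 17942 had a gene symbol. The members were chosen by measured values of this same contrast, since *Gas1* was selected on its lower log2 signal after NT-3N and the other 9 genes as parts of the pathway it serves. The differences of the members are therefore given as a description of these 5 arrays and not as a test. *Gas1* was 4.21-fold lower after NT-3N, *Hhip* was 1.64-fold lower, and the differences of the other 8 genes had 95% intervals that included 0.

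The study asked which genes respond to IL-11 in the colon. Total RNA of colon tissue from wild-type C57BL/B6 mice was hybridised to single-colour Agilent arrays, 1 array a sample. The Control group had 2 arrays, and the NT-3N 3 hr group had 3 arrays from mice injected intravenously with NT-3N. The text of the study gives an age of 8 weeks for the injected mice and describes NT-3N as a modified form of human IL-11, whereas the age of the controls is not given in the sources used here. The dose is not stated here because its unit differs between the sources. The labels name no vehicle injection for the controls, so the injection and the agonist cannot be told apart. Whether each array held a separate mouse rests on the study's count of mice per time point, and the errors measure only the spread between these arrays.

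Hedgehog ligands are secreted proteins that bind the receptor Patched 1, encoded by *Ptch1*. Without ligand, Patched 1 keeps the membrane protein Smoothened inactive. Ligand binding releases Smoothened, which lets the zinc finger factors of the Gli family activate target genes, among them *Ptch1*, *Gli1* and *Hhip* themselves. GAS1, BOC and CDON are cell surface coreceptors that bind the ligand and help Patched 1 to receive it. In the adult gut the main ligand is Indian hedgehog, made by the epithelium, and the responding cells lie mostly in the mesenchyme and smooth muscle below. *Gas1* was first known as a gene switched on in growth-arrested fibroblasts, and its protein is anchored to the membrane by a lipid and is related to the receptors of the GDNF family.

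The stretch before the start of each gene was read from RefSeq (build GRCm38.p6) and is shown for *Gas1* and *Hhip*, which were lower together in every injected mouse. A window of 250 bases was found for 8 of the 10 members. Those of *Gas1* and *Hhip* are printed 5′ to 3′ on the strand of the gene, with the letters CCAAT or TGACGTCA in capitals. The *Gas1* window is chr13:60177536-60177785, minus strand, and the *Hhip* window is chr8:80058009-80058258, minus strand.
Gas1: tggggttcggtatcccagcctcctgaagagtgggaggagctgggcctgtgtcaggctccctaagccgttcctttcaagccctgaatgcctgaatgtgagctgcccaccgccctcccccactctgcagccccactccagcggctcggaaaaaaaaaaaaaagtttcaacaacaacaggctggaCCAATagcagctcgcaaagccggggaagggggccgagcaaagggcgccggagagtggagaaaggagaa
Hhip: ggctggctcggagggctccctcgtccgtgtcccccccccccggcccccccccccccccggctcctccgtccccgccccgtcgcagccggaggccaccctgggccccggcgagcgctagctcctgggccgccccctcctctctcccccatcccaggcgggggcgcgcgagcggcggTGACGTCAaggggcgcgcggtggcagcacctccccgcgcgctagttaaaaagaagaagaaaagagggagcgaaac
The *Gas1* window held 1 CCAAT box, which began 68 bases before the start, and 33.8% of 32851 windows of the same length held these letters on either strand. The *Hhip* window held 1 cyclic AMP response element, TGACGTCA, 75 bases before the start, and 1.55% of the windows held one. These motifs were chosen after the windows had been read, and neither overlapped another motif searched. The GC content was 58.8% for *Gas1* and 76% for *Hhip*, against a median of 52.4% over all windows.

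None of the 8 member windows held the Gli core GACCACCCA or the STAT core TTCNNNGAA on either strand. Of all windows, 0.225% held the Gli core and 7.02% held the STAT core. STAT3 is the transcription factor that IL-11 receptor signalling activates. For comparison, the window of *Socs3*, a feedback inhibitor that STAT3 is known to induce, held 1 STAT core, shown in capitals with 10 bases on each side at chr11:117969502-117969530, minus strand, 154 bases before the start.
Socs3: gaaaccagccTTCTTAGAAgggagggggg
A match gives only the letters in this window, and a window without a match says nothing of sites elsewhere. On the arrays the log2 signal of *Socs3* was 10.63 and 10.11 in Control and 12.88, 13.21 and 13.14 in NT-3N, a difference of 2.71. The groups did not overlap for *Socs3*, which responded in every injected mouse.

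All values below are log2 signals, and differences are NT-3N minus Control on that scale, so a difference of 1 is a doubling. Errors of differences are the standard errors of limma, a linear model that pools the spread over all features, and intervals cover 95%. A feature was called where its adjusted p in limma was under 0.05. Levels were compared between arrays and never between probes. Where linear signals were summed over a list of markers, the sums were compared between arrays, and the brightest probes weigh most in them. In total 14 probes of the 10 members passed the background filter (well above background on at least 2 arrays). Every member was well above background on all 5 arrays. In whole tissue, fewer cells of a type and less RNA per cell cannot be told apart.

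Of the 3 coreceptors, *Gas1* was lower in every injected mouse, while the groups overlapped for *Boc* and *Cdon*. The log2 signal of *Gas1* was 8.63 and 8.43 in Control and 6.39, 6.49 and 6.49 in the NT-3N arrays. All 3 NT-3N arrays lay far below both controls and close to one another. The group means were 8.53 ± 0.15 (SD, n = 2) and 6.46 ± 0.058 (SD, n = 3), and the difference was -2.07 with a standard error of 0.14 and an interval from -2.40 to -1.74. This difference was 10.1 times the larger of the ranges within a group. Ordered from the most negative difference, *Gas1* had rank 23 of 32917 features. Only 1 probe of *Gas1* passed the background filter, so no other probe checks it.

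*Boc* encodes a coreceptor of the immunoglobulin superfamily with fibronectin repeats. Its log2 signal was 9.49 and 9.88 in Control and 9.72, 9.51 and 9.99 in NT-3N. The groups overlapped, and the difference was 0.057 with a standard error of 0.18 and an interval from -0.38 to 0.50. One injected mouse was above both controls and another was near the lower of them.

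*Cdon*, the closest relative of *Boc*, had log2 signals of 9.76 and 9.79 in Control and 8.84, 9.72 and 9.76 in NT-3N. One of the injected mice, NT-3N replicate 1, was low and the other two were at the level of the controls. The difference was -0.33 with a standard error of 0.28 and an interval from -1.01 to 0.35, and without NT-3N replicate 1 it was -0.029. Of its 2 dimmer probes, one gave a difference of -0.13 and was also lowest in NT-3N replicate 1. The other gave -0.41, with NT-3N replicate 1 at the control level of 5.13 and the other two at 4.41 and 4.62. The last probe thus placed the low values in other mice than the other probes did.

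**Figure D1:**
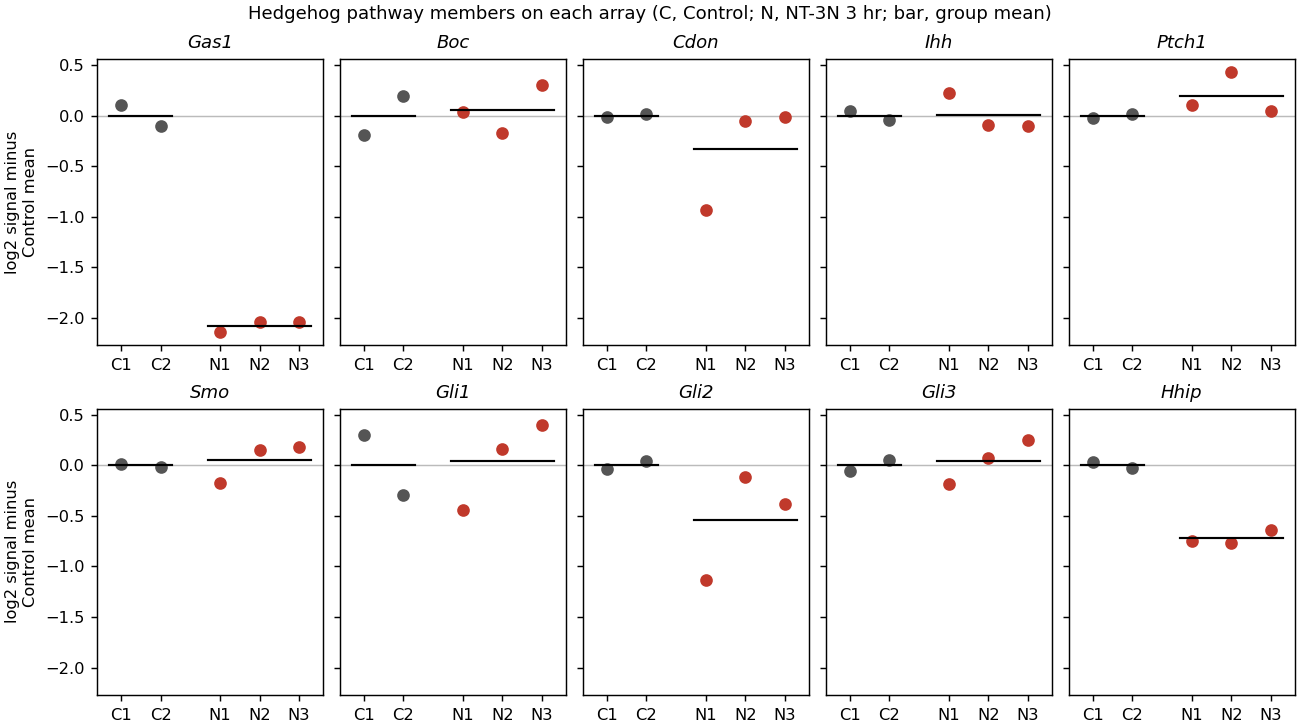
Log2 signal of each member minus its Control mean (y axis) on the 5 arrays (x axis; C1 and C2, Control; N1 to N3, NT-3N 3 hr), with points for arrays and bars for group means. The 3 NT-3N points of *Gas1* lie between -2.14 and -2.04, those of *Hhip* between -0.77 and -0.64, and those of *Cdon* and *Gli2* are spread out by the low N1 array.

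The groups overlapped for the ligand. *Ihh* encodes Indian hedgehog, and its log2 signal was 13.71 and 13.62 in Control and 13.89, 13.58 and 13.57 in NT-3N. The highest value and the lowest both belonged to injected mice. The difference was 0.012 with a standard error of 0.12 and an interval from -0.27 to 0.29.

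*Ptch1*, both the receptor and a target of the pathway, had log2 signals of 6.98 and 7.03 in Control and 7.11, 7.44 and 7.06 in NT-3N. The NT-3N arrays lay above both controls, but one of them by only a small margin, and the difference of 0.20 had a standard error of 0.16 and an interval from -0.20 to 0.59. A dimmer *Ptch1* probe read 5.74 and 5.92 in Control and 5.78, 5.46 and 5.56 in NT-3N, a difference of -0.23. The 2 probes of *Ptch1* had opposite signs, and their mean gave a difference of -0.018. The log2 signal of *Smo*, which encodes Smoothened, was 11.68 and 11.66 in Control and 11.50, 11.82 and 11.85 in NT-3N. Its controls lay inside the range of the injected mice, and the difference was 0.054 with a standard error of 0.13 and an interval from -0.25 to 0.36.

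The Gli factors differed mostly within groups. *Gli1*, an activator that is itself a target and a common readout of pathway activity, had log2 signals of 9.91 and 9.32 in Control and 9.18, 9.77 and 10.01 in NT-3N. The controls were 0.59 apart, against a median of 0.16 between the controls over all features. The difference was 0.038 with a standard error of 0.28, and its interval ran from -0.64 to 0.72, so *Gli1* was measured loosely. *Gli2*, the main activator of the family, had log2 signals of 5.29 and 5.37 in Control and 4.20, 5.21 and 4.95 in NT-3N. All NT-3N arrays were below the controls, by 0.12 to 1.13 from the Control mean, and the lowest was again NT-3N replicate 1. Its difference was -0.54 with a standard error of 0.34 and an interval from -1.36 to 0.27, and without that array it was -0.25. *Gli3*, which acts mainly as a repressor, gave 8.45 and 8.56 in Control and 8.32, 8.58 and 8.76 in NT-3N. These groups overlapped, with a difference of 0.045, a standard error of 0.16 and an interval from -0.33 to 0.42.

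*Hhip* encodes a membrane protein that binds hedgehog ligands and holds them away from Patched 1, and it is a target of the pathway that it inhibits. Its log2 signal was 10.60 and 10.54 in Control and 9.82, 9.81 and 9.94 in NT-3N. The 3 injected mice were close to one another and all lay below both controls. The group means were 10.57 ± 0.042 (SD, n = 2) and 9.86 ± 0.071 (SD, n = 3), with a difference of -0.72, a standard error of 0.097 and an interval from -0.95 to -0.48. A second *Hhip* probe read 10.38 and 9.99 in Control and 9.43, 9.88 and 9.72 in NT-3N, again without overlap, with a difference of -0.51. *Hhip* was not called, since its adjusted p in limma was 0.082, and it had rank 802 from the most negative difference.

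**Figure D2:**
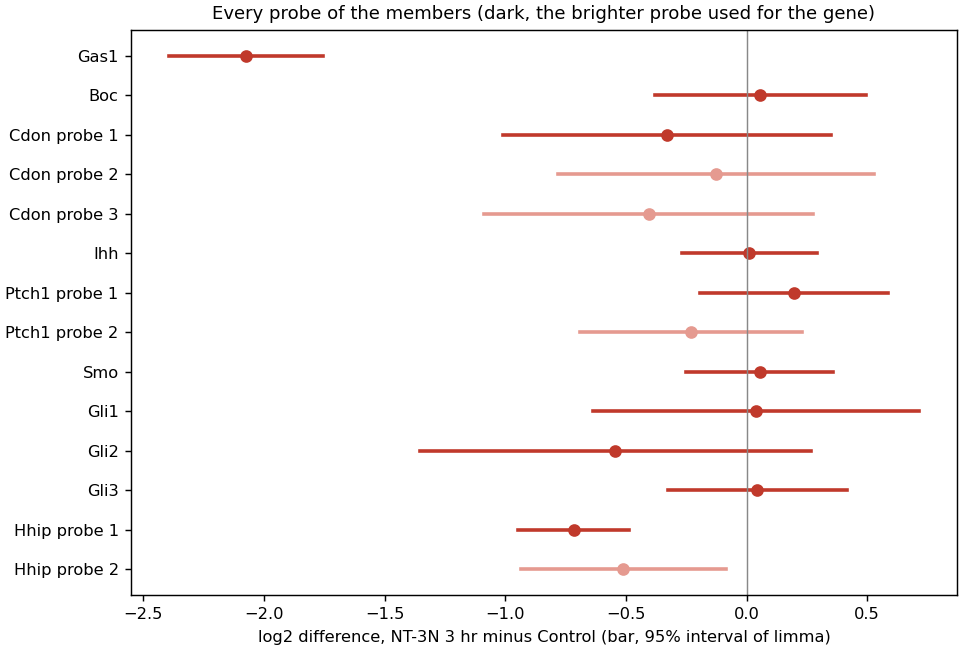
Log2 difference, NT-3N 3 hr minus Control, of the 14 probes of the members that passed the background filter (x axis). Bars give the 95% interval of limma fitted over all probes that passed it. Dark points are the brightest probe of each gene, which stands for the gene in the text. Only the probes of *Gas1* and *Hhip* have intervals that leave out 0, and the 2 probes of *Ptch1* lie on opposite sides of it.

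Of the 10 members, 1 was called lower, which was *Gas1*, and 0 were called higher. Over all features 0.0182% were called lower and 0.125% higher. The call of *Gas1* was lost without Control replicate 1, NT-3N replicate 2 or NT-3N replicate 3, with adjusted p of 0.058, 0.065 and 0.10 in limma. At an unadjusted p under 0.05, 2 members were lower and 0 higher, beside 4.67% and 4.95% of all features. The groups did not overlap for 3 members that were lower, *Gas1*, *Gli2* and *Hhip*, where the share over all features was 14.8%. They did not overlap for 1 member that was higher, *Ptch1*, where that share was 13.5%. Because the members were proposed from this contrast, nothing is read from these counts. The median difference of the 9 members other than *Gas1* was 0.038, beside a median of -0.019 over all features, whose 5th and 95th percentiles were -0.53 and 0.50.

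**Figure D3:**
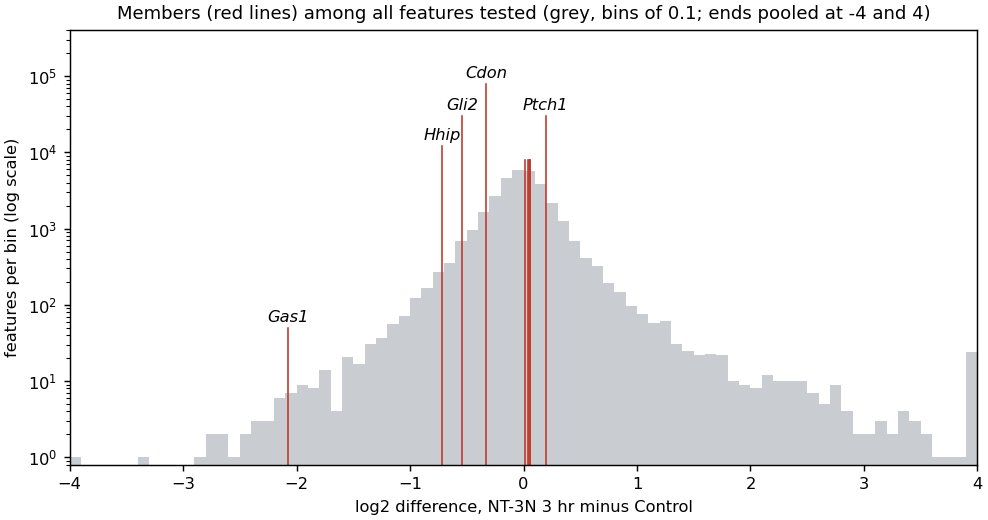
Histogram of the log2 difference, NT-3N 3 hr minus Control, of 32917 features (x axis, bins of 0.1, with the ends pooled; y axis, features per bin on a log scale), with the 10 members as red lines whose heights only keep the names apart. *Gas1* lies in the sparse left tail, *Hhip* and *Gli2* below the 5th percentile, and 5 unnamed members sit close to 0.

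Some low values came from the same mouse. NT-3N replicate 1 was the lowest of the 5 arrays for 6 of the 10 members. How often that array was lowest over all features was not counted, so nothing particular to the members is read from this. The median member on that array lay 0.31 below its Control mean, while the medians were -0.069 for NT-3N replicate 2 and 0.022 for NT-3N replicate 3. Smooth muscle markers were low on the same array. Their mean log2 signal, relative to the mean over the 5 arrays, was -0.34 on NT-3N replicate 1, 0.031 and -0.053 on the other NT-3N arrays, and 0.17 and 0.19 on the controls. The mean of the fibroblast markers was also lowest on NT-3N replicate 1, at -0.25. It was 0.37 and 0.13 on the other NT-3N arrays, and -0.12 and -0.13 on the controls. All 6 smooth muscle markers (*Acta2*, *Myh11*, *Tagln*, *Des*, *Cnn1* and *Actg2*) had a negative difference, 5 of them without overlap, with a median of -0.28. Over all features 14.8% were lower without overlap. Their summed linear signal was 445674 to 460166 in Control and 326964 to 416455 in NT-3N, so it was lower in every injected mouse, and none of the 6 was near background. The differences of *Gas1* and of *Hhip* were larger than that of any of the 6 markers, which ranged from -0.40 to -0.22. Without NT-3N replicate 1 the difference was -2.04 for *Gas1* and -0.70 for *Hhip*. The part of smooth muscle content in the differences of the members was not tested.

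Markers of other cell types were read on the same arrays. The 5 colon markers (*Cdx2*, *Slc26a3*, *Car1*, *Aqp8* and *Muc2*) passed the background filter on every array. The 6 epithelial markers had a median difference of -0.028 and no marker without overlap, beside 14.8% of all features lower and 13.5% higher without overlap. The 8 fibroblast markers had a median of 0.047, with *Pdpn* the highest at 1.49, and their summed signal was 63308 to 66169 in Control and 57335 to 82226 in NT-3N. The 6 markers of B cells all had positive differences, and their mean was low on Control replicate 2, at -1.73 relative to the mean over arrays. *Ms4a1* differed from that mean, since it was low on both controls, at 4.95 and 6.53, and had the largest difference of the 6, at 3.65 without overlap. Of the fat markers, 3 were well above background on all 5 arrays. Relative to the mean over arrays, the mean of these 3 ranged from -2.28 to 1.77 between arrays of both groups. Of 4 glial markers *Gfap* was called higher, with a difference of 1.84, and the median of the 4 was -0.059. *Csf3r*, the only neutrophil marker well above background on all 5 arrays, had a difference of -0.16. *S100a8* and *S100a9* went the other way and were well above background on 3 arrays. *S100a8* read 2.57 and 2.51 in Control and 6.21, 4.28 and 5.15 in NT-3N. *S100a9* read 1.56 and 1.58 in Control and 8.58, 6.23 and 6.65 in NT-3N. No count over the neutrophil markers is given because these genes could pass the filter through the group in which they were high. Between these controls, which differed in B cell and fat markers, *Gas1* differed by 0.21. The part of these cells in the differences of the members was not tested. The correlation of a pair of arrays over all features, which describes the arrays and treats no feature as a replicate, was between 0.980 and 0.992.

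The level of *Gas1* was next set against the target genes on each array, as the log2 signal of *Gas1* minus the mean of *Ptch1*, *Gli1* and *Hhip*. Relative to its mean over the 5 arrays, this value was 1.15 on both controls and -0.63, -0.84 and -0.83 on the NT-3N arrays. The groups were wide apart, by -1.91, with SDs of 0.0023 (n = 2) and 0.11 (n = 3). This gap comes from the difference of *Gas1* itself, -2.07, on which *Gas1* was chosen, so it is not a test. The mean of the 3 targets alone was 0.20 and -0.0046 on the controls and -0.26, 0.037 and 0.033 on the NT-3N arrays, a difference of -0.16 with SDs of 0.14 and 0.17. The targets as a group thus differed by about as much as the arrays within a group, and within them *Hhip* was lower while *Ptch1* and *Gli1* had small positive differences. The agreement of the controls in the first value rests on offsetting differences of *Gas1* and *Gli1*, both of which were higher on Control replicate 1.

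The rest of the pathway was described through 42 further genes, 40 of which were tested. Of these, 0 were called, beside 0.0182% of all features called lower and 0.125% called higher. At an unadjusted p under 0.05, 5 were lower and 1 was higher, beside 4.67% and 4.95% of all features. The local-pooled-error test, which the study's methods name, called 1 of them, *Foxf1*. Over all 32917 features that test called 192 higher and 155 lower, so nothing is read from this count. Groups did not overlap for 11 that were lower and 4 that were higher, beside 14.8% and 13.5% of all features, and 21 differences were negative and 19 positive. Their median was -0.027 and their range -0.68 to 0.89, beside a median of -0.019 over all features.

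Genes of ligand production comprised those for the other ligands, for their lipid attachment and for their release, and 7 of 8 were tested. Their median difference was 0.023. *Shh*, which encodes Sonic hedgehog, had log2 signals of 6.03 and 6.81 in Control and 6.46, 6.19 and 6.68 in NT-3N, with full overlap. *Dhh*, the gene of Desert hedgehog, overlapped as well, with a difference of -0.31 and an interval from -0.88 to 0.26. Over all features 14.8% were lower and 13.5% higher without overlap. *Scube2*, a secreted protein that helps release the lipid-bearing ligand, was the only gene of this list without overlap. It read 10.47 and 10.30 in Control and 10.15, 9.58 and 9.71 in NT-3N, a difference of -0.57 with a standard error of 0.18.

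Other genes of reception had negative differences in all 5 of the 5 tested, with a median of -0.20, and 4 of them did not overlap. Over all features 17655 of 32917 differences were negative, and 14.8% were lower without overlap. *Evc* and *Evc2*, which encode partners of Smoothened at the base of the cilium, had differences of -0.20 and -0.21. *Grk2*, a kinase that phosphorylates Smoothened, had a difference of -0.17.

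The intracellular regulators of Gli divided evenly, with 6 of 12 negative and a median of -0.011. *Sufu*, which holds Gli factors in the cytoplasm, had a difference of -0.18 and overlapping groups. Without overlap were *Btrc*, part of the ubiquitin ligase that acts on phosphorylated Gli proteins, with -0.31, and *Prkaca*, a catalytic subunit of protein kinase A, with -0.19. *Csnk1a1*, a casein kinase 1, and *Cul3*, a ubiquitin ligase scaffold, had 0.19 and 0.14 without overlap. The highest value of the list, 0.89, belonged to *Gpr161*, a ciliary receptor that restrains the pathway. It was also higher without overlap, by a small margin. It was well above background on 4 of the 5 arrays and read 3.08 and 4.34 in Control, so its difference had a standard error of 0.42. In this list 2 genes were lower and 3 higher without overlap, beside 14.8% and 13.5% of all features.

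Vertebrate hedgehog signalling passes through the primary cilium. Of 7 ciliary genes, *Kif3a*, a motor subunit of transport into the cilium, was the only one without overlap. Over all features 14.8% were lower and 13.5% higher without overlap. *Kif3a* read 9.62 and 9.71 in Control and 9.18, 9.24 and 9.35 in NT-3N, a difference of -0.41 with a standard error of 0.11. The list had a median of 0.056.

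Further genes reported to respond to hedgehog or Gli had differences from -0.68 to 0.53. *Foxf1*, a forkhead factor of the gut mesenchyme, read 12.03 and 11.92 in Control and 12.15, 12.71 and 12.67 in NT-3N. All NT-3N arrays were higher, with a difference of 0.53 and a standard error of 0.18, while its relative *Foxf2* had -0.26 without overlap. *Bmp4*, a signal of the mesenchyme, read 12.27 and 12.36 in Control and 11.57, 12.04 and 12.03 in NT-3N, a difference of -0.43 with a standard error of 0.16. *Mycn*, a regulator of growth, read 8.37 and 8.47 in Control and 7.20, 7.93 and 8.11 in NT-3N, a difference of -0.68 with a standard error of 0.27. For *Bmp4* and *Mycn* the lowest array was NT-3N replicate 1, on which the means of the smooth muscle markers and of the fibroblast markers were also lowest. The other 5 genes (*Ccnd1*, *Ccnd2*, *Bcl2*, *Foxl1* and *Sfrp1*) overlapped, with differences from -0.047 to 0.29, and the list had a median of 0.14.

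**Figure D4:**
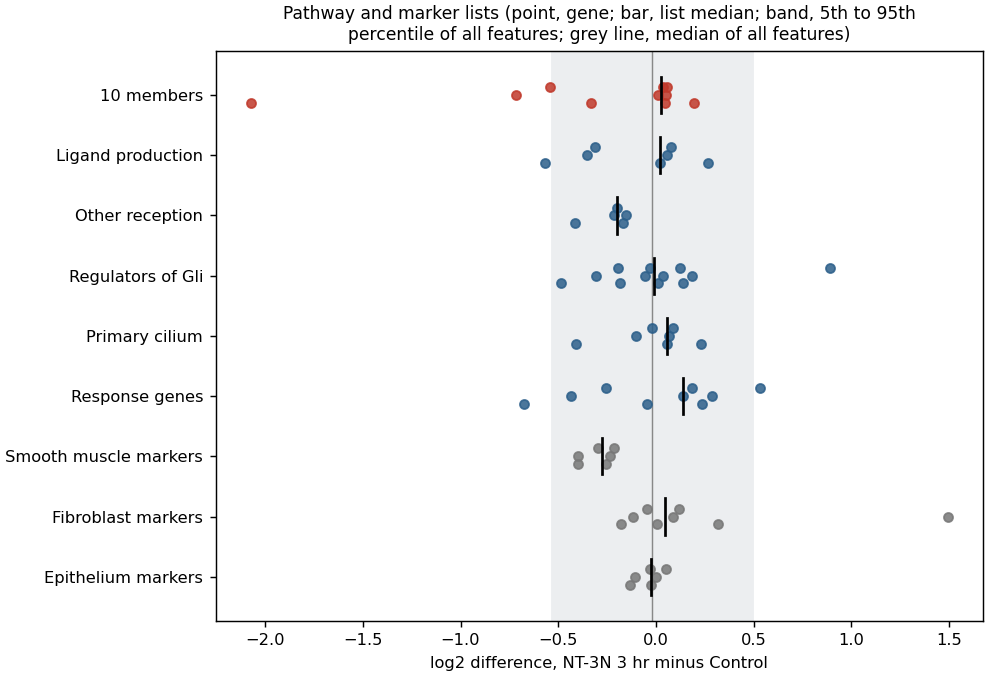
Log2 difference, NT-3N 3 hr minus Control (x axis), of each tested gene (points) in the members, the 5 further pathway lists and 3 marker lists (rows), with black bars for list medians, a grey line for the median of all features at -0.019 and a band from their 5th to their 95th percentile. The 5 reception genes and the 6 smooth muscle markers all lie below 0, and *Gas1* at -2.07 is the lowest point.

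The genes whose profile over the 5 arrays lay nearest to that of *Gas1* were found by the root mean square difference of the mean-centred log2 signals, over 16733 genes above background on all arrays. *Galr2*, a receptor for the neuropeptide galanin, was nearest at 0.257. It read 7.27 and 7.00 in Control and 5.54, 5.33 and 5.69 in NT-3N, without overlap and with a difference of -1.61. Then came *Tbxa2r*, the thromboxane A2 receptor, at 0.370 with a difference of -1.59, and *Stac*, an adaptor protein with an SH3 domain, at 0.373 with -1.46. *Kcna1*, a voltage-gated potassium channel, was at 0.407 with -1.29, and *Pgbd5*, a gene derived from a transposase, was at 0.408 with -1.35. All 5 were lower in every NT-3N array than in both controls, which follows from choosing them by likeness to *Gas1*. For the same reason their adjusted p in limma, from 0.058 to 0.15, is a description and not a test. *Hhip* was the nearest member, at rank 121, followed by *Gli2* at rank 672, while *Ptch1* was at rank 13777. The measure favours genes with a large fall, and it is a description of 5 arrays.

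**Figure D5:**
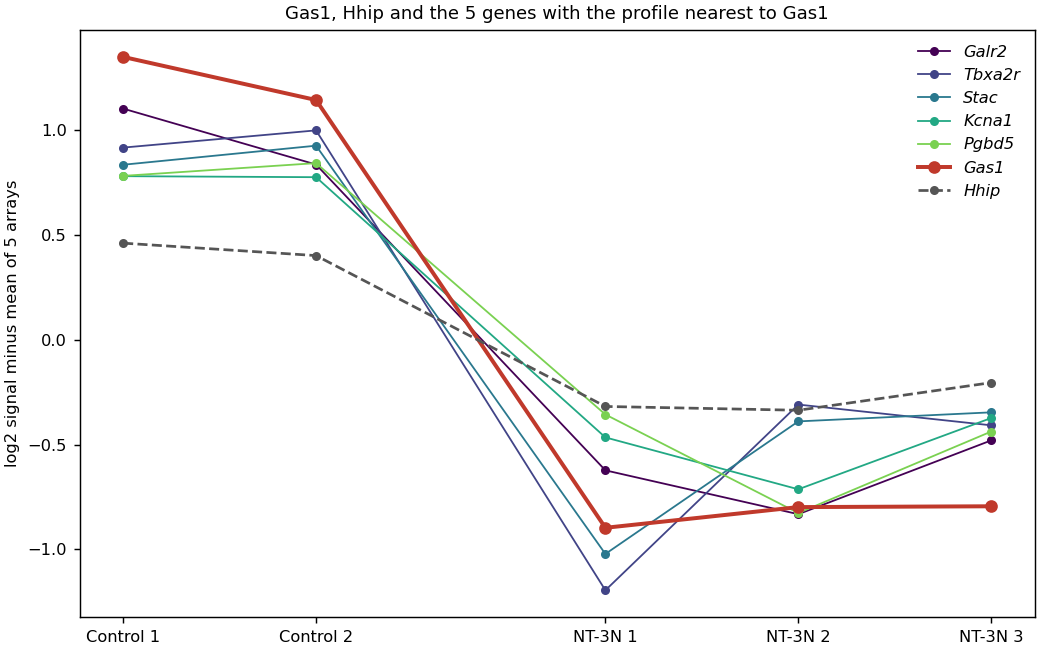
Log2 signal minus the mean over the 5 arrays (y axis) of *Gas1*, *Hhip* and the 5 genes with the profile nearest to *Gas1*, on each array (x axis; lines join the values of 1 gene). *Gas1* and *Hhip* are flat across the 3 NT-3N arrays, while *Tbxa2r* and *Stac* dip on NT-3N replicate 1.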

How the data were processed

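Colon RNA was measured on 5 arrays of 1 slide with 1 scan time. The authors extracted the spots with Agilent Feature Extraction 11.0.1.1, and the deposited scanner files hold background-subtracted processed intensity, not scaled between arrays. A deposited table gives log2 values of 37380 probes. It matched the quantile-normalized log2 processed signal (correlation at least 0.99998 on each array) and served as an alternative. Control spots and 69 to 184 outlier spots per array of 59305 were left out. Saturated spots numbered 0, the median processed signal of an array was 91.9 to 114.9, and 70.6% to 73.1% of 56605 probes were well above background. Log2 intensity was quantile-normalized, probes well above background on at least 2 arrays were kept, and accessions were named through RefSeq (GRCm38.p6), which gave 32994 probes a symbol. A gene was represented by its brightest probe.

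The comparison used limma 3.58.1 under R 4.3.3 (lmFit, eBayes with intensity trend, two-sided, Benjamini-Hochberg over all features), after testing on simulated data. The local-pooled-error test of the study's methods was run as an alternative because limma gives pooled errors with adjusted p-values. An exact permutation test of 2 against 3 arrays cannot go below p = 0.1, and the number of arrays limits the precision. The members, lists and tests were chosen with earlier results of these data known. Named genes were the members, any list gene called, and up to 4 genes per list with the largest difference among those above background on all arrays with no overlap. *Shh*, *Dhh*, *Sufu*, *Gpr161* and the markers *Pdpn*, *Ms4a1*, *Csf3r*, *S100a8*, *S100a9* and *Gfap* were named after their values were seen. For 1 gene of the lists, which the list counts include, values are not reported here. The 16 alternatives covered scaling, background, filter, probes, variance model, weights, test, replicate block and leaving out each array.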

Additional observations from a re-analysis of the deposited data

How the results depend on the processing

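The sign of the *Gas1* difference held in all 16 alternatives, and *Gas1* was called in 10. With normexp background correction the difference was -1.48 and still called, and that of *Gas1* minus the target mean was -1.32. *Gas1* was no longer called without the filter on dim probes (-2.07, adjusted p = 0.072 in limma), without the intensity trend (-2.07, 0.057) or with the replicate block (-2.09, 0.40). Leaving out each array gave -2.18 to -1.97, with the call lost without Control replicate 1 (adjusted p = 0.058 in limma), NT-3N replicate 2 (0.065) or NT-3N replicate 3 (0.10). Members called were 0 without the filter, without the trend and with the replicate block, 2 with array quality weights (*Gas1* and *Hhip*), and 0 to 1 without single arrays.

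Features called higher were 2 without the filter, 2 without the trend, 128 with array weights, 192 with the local-pooled-error test, 0 with the replicate block and 0 to 114 without single arrays, where limma made 41. Features called lower were 11 in the deposited log2 values, 13 with all 5 arrays above background, 0 without the filter, without the trend or with the replicate block, 48 with array weights, 155 with the local-pooled-error test and 0 to 16 without single arrays, against 6. At an unadjusted p under 0.05 limma gave 3941 features without the filter, 3075 without the trend and 2488 with the replicate block, against 3167 with the filter and trend and without the block. The cause was not tested. The replicate numbers do not mark shared mice, and deviations of same-numbered arrays correlated at 0.13 and 0.036.

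The differences of *Cdon*, *Gli2* and *Hhip* were negative in all 16 alternatives. *Hhip* ranged from -0.76 to -0.61, and *Cdon* from -0.49 to -0.029, the last without NT-3N replicate 1. *Gli2* ranged from -0.75 to -0.19, the last with normexp background correction. The sign changed for *Gli1* and *Ihh* in 4 each, *Boc* and *Gli3* in 3 each, *Smo* in 2 and *Ptch1* in 1. Of the further pathway genes, 0 were called in 15 alternatives, and 1 by the local-pooled-error test, which called 192 features higher and 155 lower.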

Other observations

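The GAS1 protein is related to the GFRA coreceptors for ligands of the GDNF family, which signal through the RET kinase. Of 10 genes of that system 8 were tested, with a median difference of 0.0092 beside -0.019 over all features. Limma called 0 of them, beside 0.0182% of all features lower and 0.125% higher. The local-pooled-error test also called 0, beside 192 features higher and 155 lower over all 32917. At an unadjusted p under 0.05 in limma 0 were lower and 1 was higher, beside 4.67% and 4.95% of all features. Without overlap 0 were lower and 2 higher, beside 14.8% and 13.5% of all features. *Artn*, the gene of the ligand artemin, read 7.70 and 7.62 in Control and 7.94, 8.15 and 8.21 in NT-3N, a difference of 0.44 with a standard error of 0.14. *Nrtn*, the gene of neurturin, had a difference of 0.15, also without overlap. The coreceptor genes *Gfra1*, *Gfra2*, *Gfra3* and *Gfra4* all overlapped between the groups, with differences from -0.067 to 0.10. *Ret* overlapped with -0.14, and *Gdnf*, chosen after its value was seen, with -0.46 and a standard error of 0.23.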
